A study of Mus musculus with 12 samples.

Results

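The mitochondrial ribosomal protein genes described here are the 71 mouse genes whose array rows carry a single gene symbol built from Mrpl or Mrps and a number. They are 71 of the 22180 genes with a single-symbol row and were measured by 80 of 33793 rows. The set holds 43 genes with large subunit names (Mrpl) and 28 with small subunit names (Mrps). A further 13 rows paired such a symbol with another gene and were left out, and 7 symbols, Mrpl44 and Mrpl33 among them, occurred only in such rows. RNA was measured on 12 single-channel arrays of CD8+ T cells from spleens of C57BL/6 mice, enriched by depleting other cells and cultured for 6 h. The 4 groups of 3 arrays were mock treatment with PBS, PBS with IFN-4a (an interferon), antibody against CD3 (anti-CD3, a trigger of the T cell receptor complex), and anti-CD3 with IFN-4a. No genotype other than the strain and no animal age is given in the labels, which also do not say whether the arrays of a group came from separate mice or cultures. The p-values therefore measure only the spread between these arrays, which may be technical. Below, PBS-treated cells are the resting cells and anti-CD3-treated cells the stimulated ones.

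Mitochondria translate the few proteins encoded by their own genome on a dedicated ribosome. Its RNA comes from mitochondrial DNA, whereas all of its proteins are encoded in the nucleus, made in the cytosol and imported. Some of these proteins descend from bacterial ribosomal proteins and others are found only in mitochondria. T cells that are activated through the receptor enlarge their mitochondria and need newly made respiratory chain subunits as they leave quiescence. The names do not always give the place of a protein: Mrps18a and Mrps30 belong to the large subunit, which makes the count by structure 45 large and 25 small subunit genes. Mrps36 is now known as a subunit of the oxoglutarate dehydrogenase complex and not of the ribosome.

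The deposited numbers are log values, read as log2, and each row was centred, so that 0 stands for the row's own median across all arrays. The level of a gene is not given. Array medians lay between -0.0157 and 0.0165, and no correlation between arrays of a group was below 0.7345 across genes, against a highest value of 0.5378 between groups. The CD8 T cell genes Cd8a (log2 change 0.08, adjusted p = 0.269) and Cd3e (0.01, adjusted p = 0.884) were not called with anti-CD3, and Cd8b1 fell by 0.34 on the log2 scale. Activation and interferon genes separated the groups as labelled: Il2ra, Nr4a1, Egr2 and Cd69 rose by 3.93, 3.44, 3.24 and 2.02 with anti-CD3, and Ifit1, Mx1, Isg15 and Irf7 rose by 5.16, 4.22, 3.48 and 3.43 with IFN-4a in resting cells. Array values cannot tell fewer cells of a type from less RNA per cell.

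Promoter bases of 4 members are shown because these genes carried the largest changes or a motif of the factors linked to mitochondrial gene expression. Mrps18b (chr17:35916441-35916690, minus strand) had the largest increase with anti-CD3, and Mrpl58 (chr11:115403502-115403751, plus strand) the largest decrease. Mrpl32 (chr13:14613038-14613287, minus strand) had the largest decrease with IFN-4a in resting cells, and Mrpl12 (chr11:120484387-120484636, plus strand) encodes the stalk protein that contacts the translation factors. Each line gives the 250 bases before the RefSeq start of the gene in GRCm38.p6, and capitals mark a match to one of the motifs named below.
Mrps18b: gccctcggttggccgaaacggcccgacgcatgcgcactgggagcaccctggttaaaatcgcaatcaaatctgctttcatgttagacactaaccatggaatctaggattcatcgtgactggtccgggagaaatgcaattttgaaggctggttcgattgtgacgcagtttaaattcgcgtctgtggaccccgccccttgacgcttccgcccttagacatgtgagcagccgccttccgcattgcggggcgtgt
Mrpl12: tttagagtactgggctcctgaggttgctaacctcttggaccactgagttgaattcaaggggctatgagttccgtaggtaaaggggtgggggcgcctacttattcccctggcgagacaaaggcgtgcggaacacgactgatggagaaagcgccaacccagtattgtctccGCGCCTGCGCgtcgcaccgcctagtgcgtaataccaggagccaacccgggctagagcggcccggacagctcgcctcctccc
Mrpl32: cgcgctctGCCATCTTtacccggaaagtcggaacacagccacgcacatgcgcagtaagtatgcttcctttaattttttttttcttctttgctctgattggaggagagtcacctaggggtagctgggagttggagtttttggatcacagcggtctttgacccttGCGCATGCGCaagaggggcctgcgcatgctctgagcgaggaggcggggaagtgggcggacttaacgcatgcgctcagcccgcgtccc
Mrpl58: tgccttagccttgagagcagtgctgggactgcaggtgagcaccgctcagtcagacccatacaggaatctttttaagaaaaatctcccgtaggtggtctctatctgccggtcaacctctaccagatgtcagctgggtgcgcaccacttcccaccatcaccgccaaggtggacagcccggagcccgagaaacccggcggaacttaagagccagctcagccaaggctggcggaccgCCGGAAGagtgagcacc

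The motifs searched on both strands of the 300 bases around the start (250 before, 50 after) were GCGC and TGCGC with 1 base of any kind between them for nuclear respiratory factor 1 (NRF1), CCGGAAG for ETS factors including GABP, AAGATGGC for YY1, CACGTG for MYC and MAX, and TATAAA for a TATA box. No base of one motif was reserved, so matches of different motifs could overlap. RefSeq held a start region for 62 of the 71 members. The NRF1 motif was found in 11 of the 62 members (17.7%), against 5.2% of all 27025 genes with a start region and 7.2% of 17491 protein-coding genes. The ETS motif was found in 23 members (37.1%), against 9.9% of all genes and 12.9% of coding genes. The YY1 motif was found in 12 members (19.4%), against 3.2% and 3.6%. The E-box was found in 5 members, 8.1% as in all genes, and the TATA motif in 5 members (8.1%), against 15.7% of all genes. These are counts of letters and not of bound sites. In Mrps18b the ETS match lay outside the printed bases.

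The NRF1 matches that lie wholly before the start are shown with 10 bases on each side, because they show how far the letters around a shared core differ between members.
Mrpl12 (chr11:120484546-120484575, plus strand): tattgtctccGCGCCTGCGCgtcgcaccgc
Mrpl17 (chr7:105811117-105811146, minus strand): aggctctgatGCGCACGCGCaaacgcggta
Mrpl32 (chr13:14613105-14613134, minus strand): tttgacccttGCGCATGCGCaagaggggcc
Mrpl39 (chr16:84735350-84735379, minus strand): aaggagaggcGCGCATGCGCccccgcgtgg
Mrpl45 (chr11:97315586-97315615, plus strand): gaagcctcctGCGCAGGCGCagctggctct
Mrpl45 (chr11:97315668-97315697, plus strand): tggtttcattGCGCACGCGCgaacccactg
Mrpl57 (chr14:57826172-57826201, plus strand): tttgaatcctGCGCAGGCGCagaaggcgtc
Mrpl9 (chr3:94443298-94443327, plus strand): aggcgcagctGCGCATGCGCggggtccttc
Mrps21 (chr3:95871586-95871615, minus strand): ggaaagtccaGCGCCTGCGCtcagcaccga

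The match in Mrpl12 ended 71 bases before the start, that in Mrpl9 18 bases before it and that in Mrpl39 115 bases before it. Members with and without a motif were also compared in their change with anti-CD3 alone. The median log2 change was 0.32 for members with the NRF1 motif and 0.29 without, 0.24 with and 0.40 without the ETS motif, and 0.42 with and 0.29 without the YY1 motif. Of the 42 members with a start region that rose, 8 held the NRF1 motif, 15 the ETS motif and 9 the YY1 motif, and of the other 20 members 3, 8 and 3 did. These medians and counts are descriptions without a test.

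The first comparison asks how the members differ after 6 h of anti-CD3 without IFN-4a. Of the 71 genes, 49 rose and 3 fell (limma, Benjamini-Hochberg adjusted p under 0.05 over all genes), which is 69.0% higher and 4.23% lower. Among all 22180 genes 31.8% were called, 13.8% higher and 18.0% lower. The median log2 change of the members was 0.36, against -0.04 for all genes, and 59 of the 71 changes lay above 0. The 3 anti-CD3 arrays lay wholly above the 3 PBS arrays in 47 members, and 16.7% of all genes did so. Most members were brightly measured, so the count was also taken among genes placed at 8 or above on the log scale before centring. Of these, 39 of 51 members (76.5%) rose and 3 fell, against 33.5% and 34.7% of 6683 genes. The class was read from the 6 highest arrays of a row. A gene that rises can thus pass through its anti-CD3 arrays alone, so these shares do not match the genes by their resting level.

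**Figure D1:**
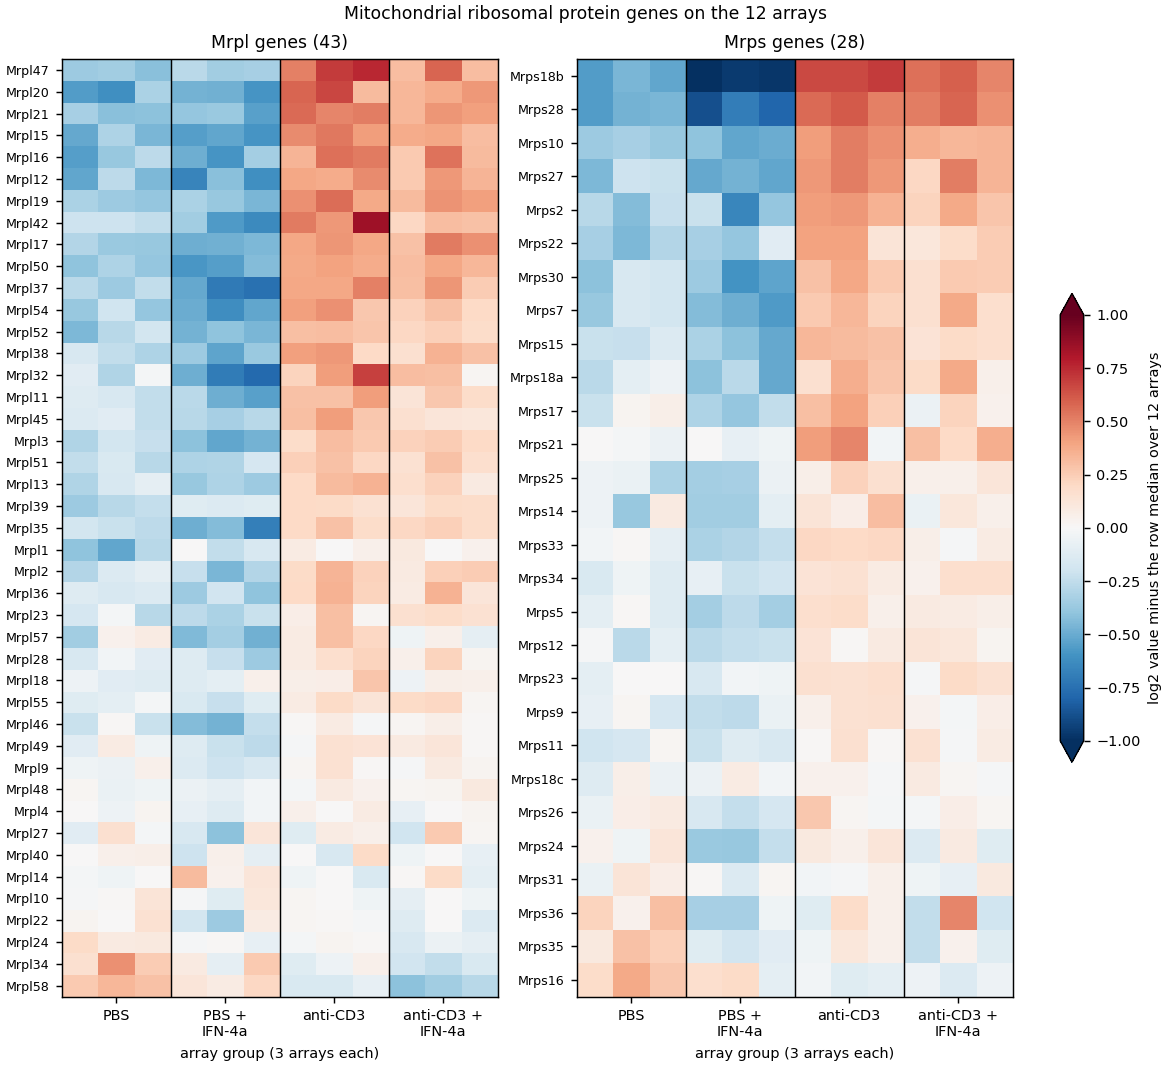
Centred log2 values of the 43 Mrpl and 28 Mrps genes (rows, ordered by the change with anti-CD3) on the 12 arrays (columns, 3 per group). Red is above and blue below the row's median. Most rows are red in both anti-CD3 groups and blue in both PBS groups, and the 3 genes that fell with anti-CD3, Mrpl58, Mrps16 and Mrpl34, lie at the bottom with the colours turned.

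Genes of both subunits rose. Under their names 30 of 43 large subunit genes rose and 2 fell (median log2 change 0.44), and 19 of 28 small subunit genes rose and 1 fell (median 0.26). Assigned by structure the counts were 32 and 2 of 45 for the large subunit (median 0.44), and 17 and 1 of 25 for the small subunit (median 0.24). No test of the difference between the subunits was made.

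Mrps18b (Entrez 66973), a small subunit protein and one of the variants of bacterial S18 in mammals, had the largest increase. It read -0.56, -0.46 and -0.52 on the PBS arrays, -1.12, -0.96 and -0.97 with IFN-4a, 0.66, 0.66 and 0.70 with anti-CD3, and 0.55, 0.60 and 0.49 with both. All stimulated arrays lay above all resting arrays, and the PBS arrays with IFN-4a were the lowest of all. The increase was 2.27-fold (log2 change 1.18, SE 0.06, adjusted p = 2.24e-09). It was measured by 2 rows, which gave log2 changes of 1.03 and 1.34. The other variants of S18 had smaller values: Mrps18a, in the large subunit, rose by 0.41 (SE 0.09, adjusted p = 0.00362), and Mrps18c, which takes the place of bacterial S18 in the small subunit, changed by 0.07 (SE 0.06, adjusted p = 0.466).

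Mrps28 (Entrez 66230), the small subunit relative of bacterial S1, read -0.56, -0.47 and -0.46 with PBS and 0.57, 0.61 and 0.50 with anti-CD3. It rose 2.08-fold (log2 change 1.06, SE 0.06, adjusted p = 1.13e-08) with no overlap between these groups. Mrpl47 (Entrez 74600), the relative of bacterial L29, read -0.36, -0.35 and -0.42 with PBS and 0.50, 0.70 and 0.75 with anti-CD3. It rose 2.04-fold (log2 change 1.03, SE 0.08, adjusted p = 2.36e-07), and its 2 rows gave 0.82 and 1.23. Mrpl20 (Entrez 66448), a large subunit protein of the bacterial L20 family, read -0.56, -0.61 and -0.32 with PBS and 0.58, 0.67 and 0.32 with anti-CD3. Replicate 3 was nearest to 0 in both groups, and the groups did not overlap. The increase was 2.03-fold (log2 change 1.02, SE 0.09, adjusted p = 8.31e-07). These 4 genes were the members that rose at least 2-fold, as 2.54% of all genes did. Among brightly measured genes 489 of 6683 did so, and 3 of the 51 such members.

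The next 3 increases belonged to large subunit proteins of bacterial families. Mrpl21 rose by 0.91 (SE 0.06, adjusted p = 3.55e-08), Mrpl15 by 0.90 (SE 0.06, adjusted p = 5.25e-08) and Mrpl16, which lies near the peptidyl transferase centre, by 0.86 (SE 0.10, adjusted p = 6.87e-06). Mrpl19 (SE 0.06, adjusted p = 1.44e-07) and Mrpl42 (SE 0.10, adjusted p = 1.22e-05), both of the large subunit, rose by 0.82. The small subunit gene Mrps10 also rose by 0.82 (SE 0.05, adjusted p = 2.34e-08). In each of these genes every anti-CD3 array lay above every PBS array. Mrpl12, the stalk protein, read -0.52, -0.26 and -0.45 with PBS and 0.39, 0.37 and 0.47 with anti-CD3. It rose 1.76-fold (log2 change 0.82, SE 0.08, adjusted p = 2.05e-06), though its 2 rows differed in size, at 1.08 and 0.56.

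Other members rose by less. Mrps30, a large subunit protein in spite of its name, rose by 0.56 (adjusted p = 5.75e-05), and Mrpl45, which lies at the exit of the nascent chain near the inner membrane, by 0.50 (adjusted p = 1.03e-05). Mrpl1, of the stalk near the site where transfer RNA leaves, rose by 0.44 (adjusted p = 0.000287). Mrpl36 rose by 0.40 (adjusted p = 0.000869), and Mrps12, which lies at the decoding centre, by 0.21 (adjusted p = 0.0278). The call of Mrps12 was lost without anti-CD3 replicate 1, anti-CD3 replicate 3 or PBS replicate 2 (adjusted p up to 0.13). Mrps36, the oxoglutarate dehydrogenase subunit, changed by -0.15 (SE 0.16, adjusted p = 0.564) with overlapping groups.

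The 3 decreases were small. Mrpl58, a peptidyl-tRNA hydrolase that frees stalled chains and is built into the large subunit, read 0.26, 0.33 and 0.29 with PBS and -0.15, -0.15 and -0.08 with anti-CD3. It fell 1.34-fold (log2 change -0.42, SE 0.06, adjusted p = 4.06e-05) with no overlap. Mrps16 read 0.18, 0.38 and 0.27 with PBS and -0.03, -0.12 and -0.10 with anti-CD3 (log2 change -0.36, SE 0.08, adjusted p = 0.00257). Of its 2 rows 1 was called (-0.48, adjusted p = 0.0138) and the other was not (-0.23, adjusted p = 0.337). Mrpl34, of the bacterial L34 family, read 0.16, 0.46 and 0.25 with PBS and -0.12, -0.05 and 0.05 with anti-CD3 (log2 change -0.33, SE 0.09, adjusted p = 0.0118). Its call was lost without PBS replicate 2 (adjusted p = 0.0612) or anti-CD3 replicate 1 (adjusted p = 0.0522).

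**Figure D2:**
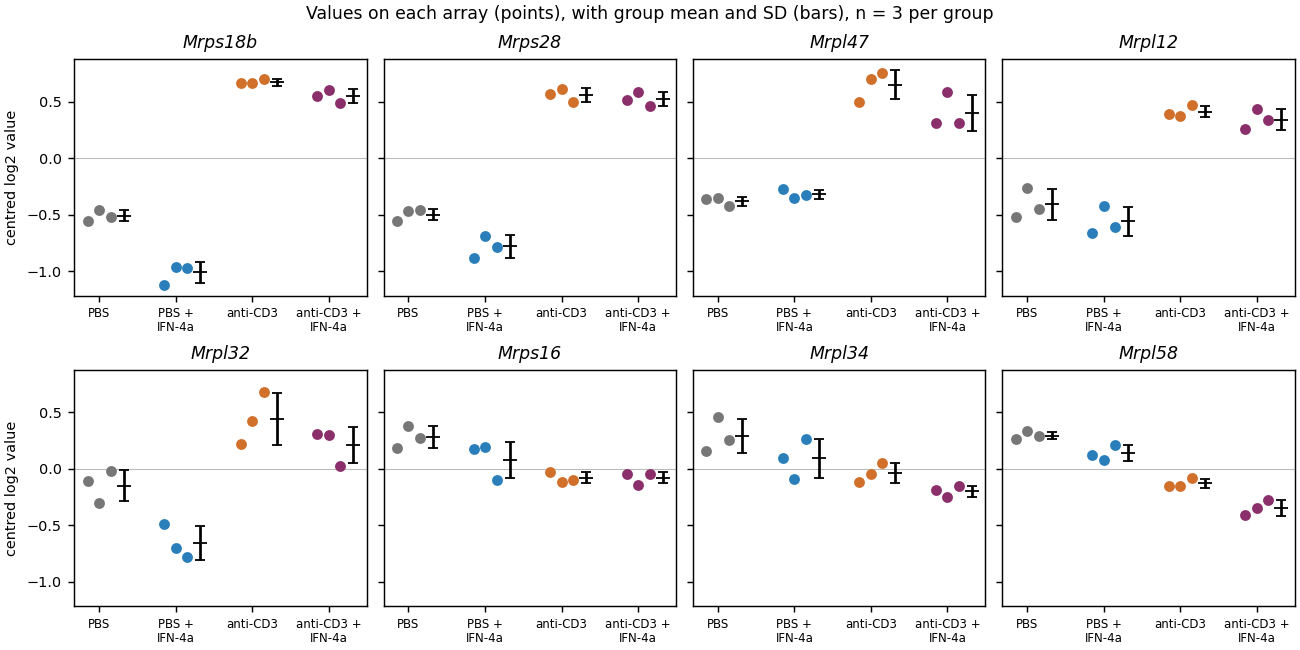
Centred log2 values of 8 members on each of the 12 arrays (points), with the mean and SD of each group (n = 3) beside them. Mrps18b, Mrps28, Mrpl47, Mrpl12 and Mrpl32 lie higher in the anti-CD3 groups, and Mrps16, Mrpl34 and Mrpl58 lie lower with anti-CD3 than with PBS.

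Of the 49 increases, 38 kept their call whichever single array was left out, and the count of increases then ran from 40 to 48. For Mrps5, a small subunit gene, the rows disagreed: 1 gave 0.51 (adjusted p = 0.000251) and the other -0.10 (adjusted p = 0.33), so that its mean change of 0.21 (adjusted p = 0.0112) rests on the first. The first row was brightly measured and the other was not.

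The same comparison was made between the arrays with IFN-4a, which share no array with the first. With anti-CD3 and IFN-4a against PBS and IFN-4a, 52 of the 71 members rose and 2 fell, against 12.8% higher and 14.9% lower of all genes, of which 27.7% were called. The median log2 change was 0.40, against -0.04 over all genes, and 65 changes lay above 0. The stimulated arrays lay wholly above the resting arrays in 55 members, against 15.9% of all genes. Of the 51 brightly measured members 41 rose (80.4%), against 31.0% of such genes, with the same limit of that class. By name 31 of 43 large subunit genes rose and 2 fell, and 21 of 28 small subunit genes rose and none fell.

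The order of the members was much alike in both comparisons. Their changes correlated with Pearson r = 0.933 and Spearman rho = 0.933 over 71 genes (0.903 and 0.678 over all genes), given as a description because genes measured by the same probes are not replicates. In 47 genes the increase was called in both, and in 2, Mrpl58 and Mrpl34, the decrease. Mrps18b rose 2.95-fold (log2 change 1.56, SE 0.06, adjusted p = 1.42e-10) and Mrps28 2.46-fold (1.30, SE 0.06, adjusted p = 1.45e-09). Mrpl37, a large subunit protein found only in mitochondria, rose by 0.98 (SE 0.07, adjusted p = 1.63e-07). Mrpl15 and Mrpl12 each rose by 0.91, Mrpl17 by 0.90, Mrpl20 by 0.89 and Mrpl32 by 0.87, with adjusted p between 5.34e-08 and 5.21e-05.

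Some members were called in only 1 of the 2 comparisons, a difference that the interaction below tests. Mrpl1 (0.18, adjusted p = 0.0973) and Mrpl18 (0.08, adjusted p = 0.504) were called without IFN-4a and not with it. Mrpl46, Mrpl49, Mrpl9, Mrps11 and Mrps24 were called higher with IFN-4a and not without. Mrpl58 fell by 0.48 (SE 0.06, adjusted p = 1.18e-05) and Mrpl34 by 0.28 (SE 0.09, adjusted p = 0.033), and Mrps16 changed by -0.16 (adjusted p = 0.156). The Mrpl34 call was lost without any 1 of the 3 anti-CD3 arrays with IFN-4a, or without replicate 1 or 3 of PBS with IFN-4a (adjusted p up to 0.156). Mrps18a rose by 0.60, Mrps30 by 0.72, Mrpl36 by 0.50, Mrpl45 by 0.43 and Mrps12 by 0.33. The value of Mrps18c was 0.04 (adjusted p = 0.773) and that of Mrps36 0.25 (adjusted p = 0.335).

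**Figure D3:**
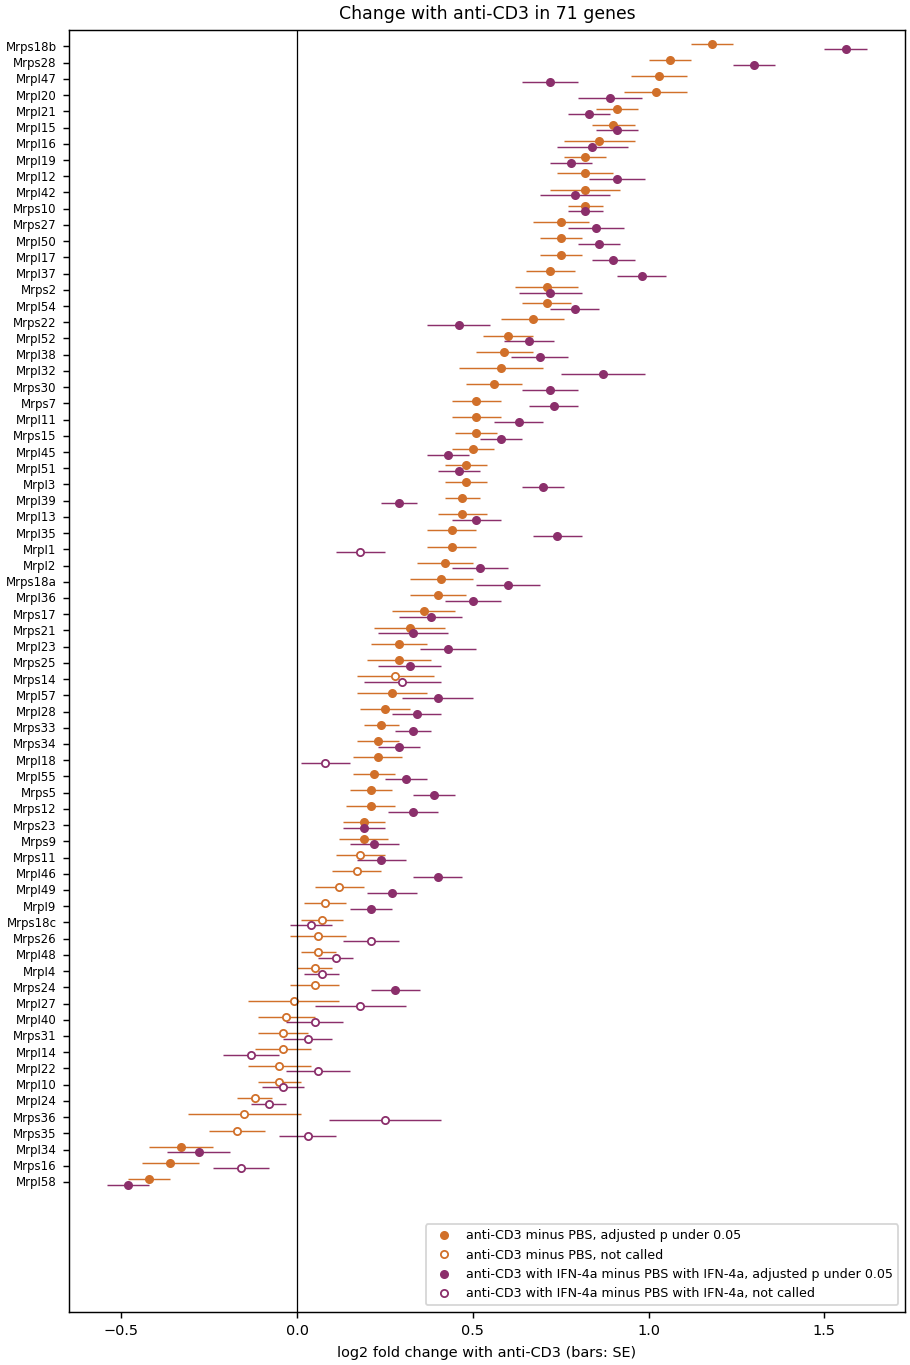
Log2 fold change with anti-CD3 of each of the 71 genes (points; bars are the SE), without IFN-4a (orange) and with IFN-4a (purple). Filled points passed an adjusted p under 0.05. Most points lie right of 0 in both comparisons, Mrps18b and Mrps28 lie farthest right with IFN-4a (1.56 and 1.30), and Mrpl58 and Mrpl34 are left of 0 in both.

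IFN-4a in resting cells was set against PBS alone. Here 15 of the 71 members fell and 2 rose, 21.1% lower and 2.82% higher. Among all genes 12.6% were called, 8.37% lower and 4.25% higher. Among brightly measured genes 17.9% were lower, which is near the 12 of 51 members (23.5%) that were. The median log2 change was -0.15 for the members and -0.01 for all genes, and -0.07 for the brightly measured genes. Of the 71 changes 64 lay below 0, against 11818 of all 22180 genes. In 33 members the IFN-4a arrays lay wholly below the PBS arrays, against 18.7% of all genes. Brightly measured genes leaned the same way: 4463 of 6683 lay below 0, as 47 of 51 such members did, and 35.2% lay wholly below the PBS arrays, as 25 of those 51 members did.

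Mrpl32, of the bacterial L32 family, had the largest decrease. It read -0.11, -0.30 and -0.02 with PBS and -0.49, -0.70 and -0.78 with IFN-4a, 1.43-fold lower without overlap (log2 change -0.51, SE 0.12, adjusted p = 0.0123). It lost the call without PBS replicate 3 (adjusted p = 0.0541). Mrps18b was 1.42-fold lower (log2 change -0.50, SE 0.06, adjusted p = 6.69e-05), and its 2 rows gave -0.66 and -0.34, both called. Mrps24, the relative of bacterial S3 at the entry of the messenger RNA, read 0.04, -0.04 and 0.12 with PBS and -0.37, -0.38 and -0.24 with IFN-4a (log2 change -0.37, SE 0.07, adjusted p = 0.0035). Mrps24 was thus lower than on any PBS array on each of the 3 IFN-4a arrays.

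Mrpl37 fell by 0.36 (SE 0.07, adjusted p = 0.00584), and its PBS arrays at -0.27, -0.36 and -0.25 lay above the IFN-4a arrays at -0.51, -0.71 and -0.75. Mrps35, a small subunit protein found only in mitochondria, fell by 0.35 (SE 0.08, adjusted p = 0.00812). Mrpl57 fell by 0.34 (SE 0.10, adjusted p = 0.0361). In Mrpl57 the groups overlapped, since PBS replicate 1 read -0.35 and the others 0.04 and 0.08, against -0.44, -0.34 and -0.48 with IFN-4a. Its call was lost without PBS replicate 2 or 3 or any 1 of the arrays of PBS with IFN-4a (adjusted p up to 0.138), in a fit of only the groups compared (adjusted p = 0.0796) and after quantile normalization (adjusted p = 0.0691). Mrpl35 fell by 0.32 (SE 0.07, adjusted p = 0.00587) and Mrps28 by 0.29 (SE 0.06, adjusted p = 0.00787), both without overlap. The remaining 7 decreases, of Mrpl11, Mrps7, Mrps33, Mrps5, Mrpl3, Mrpl54 and Mrps15, lay between -0.25 and -0.22.

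The 2 increases were those of Mrpl1 and Mrpl39. Mrpl1 read -0.40, -0.52 and -0.28 with PBS and 0.00, -0.25 and -0.16 with IFN-4a, higher by 0.26 (SE 0.07, adjusted p = 0.0355). Mrpl39 read -0.36, -0.28 and -0.24 with PBS and -0.12, -0.14 and -0.12 with IFN-4a, higher by 0.17 (SE 0.05, adjusted p = 0.046). Neither pair of groups overlapped, and neither call held when each array was left out in turn. Of the members named whatever their values, none of Mrpl12 (-0.15), Mrps12 (-0.11), Mrpl36 (-0.17), Mrpl45 (-0.13), Mrpl58 (-0.15), Mrps18a (-0.26), Mrps18c (0.04), Mrps30 (-0.24) and Mrps36 (-0.42) was called with IFN-4a in resting cells, with adjusted p from 0.0599 to 0.711.

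The resting count is less firm than the counts with anti-CD3. Of the 15 decreases 7 kept their call whichever array was left out. The 17 calls became 9 without PBS replicate 2, 11 without PBS replicate 3 and 10 without replicate 2 of PBS with IFN-4a, and 10 after quantile normalization of the deposited values.

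In stimulated cells no member was called with IFN-4a (limma, lowest adjusted p 0.0519, for Mrpl58 with a log2 change of -0.22), where 3.48% of all genes were. At an unadjusted p under 0.05, 11 members were lower and none higher. Of all 22180 genes 1941 were lower at that limit, and of 6683 brightly measured genes 1225 were. In either direction 15.1% of all genes were past it. The median change was -0.07, against 0.00 over all genes and -0.05 over brightly measured genes, and 60 of 71 changes lay below 0. Mrpl58 read -0.15, -0.15 and -0.08 with anti-CD3 and -0.41, -0.35 and -0.28 with IFN-4a added, with no overlap. With array weights 4 members were called lower: Mrpl45, Mrpl47, Mrpl58 and Mrps17.

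Each of the 15 genes that fell with IFN-4a in resting cells was also below 0 in stimulated cells. Their median was -0.29 in resting and -0.13 in stimulated cells. They were picked by their resting values, which makes the resting median large by selection, so these 2 medians do not compare the states. Over all 71 members the medians were -0.15 and -0.07. Fewer calls in stimulated cells do not show a difference between the states. The difference itself was tested as the interaction, the change with IFN-4a under stimulation less the same change at rest, and no member was called (limma, lowest adjusted p 0.0556), as 0.942% of all genes were. At an unadjusted p under 0.05 there were 8 members above and 3 below 0, and 11.0% of all genes passed that limit. Mrps18b had the lowest adjusted p, with an interaction of 0.38 (SE 0.08). It was called with array weights (adjusted p = 0.0359) and among bright rows alone (adjusted p = 0.011). Over the 71 genes the IFN-4a changes of both states, which share no array, correlated with r = 0.368 and rho = 0.347, against 0.766 and 0.47 over all genes.

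**Figure D4:**
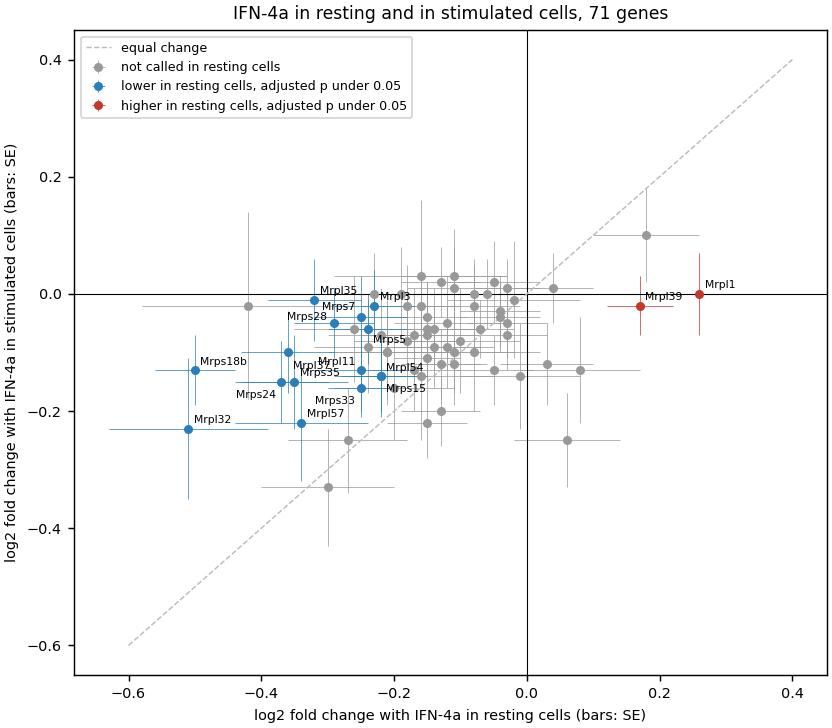
Log2 fold change with IFN-4a in resting cells (horizontal) against that in stimulated cells (vertical) for the 71 genes, with SE bars. Blue points fell and red points rose in resting cells. The 15 blue points were picked by their decrease in resting cells, and all lie below 0 in stimulated cells too. Their medians are -0.29 and -0.13, the first of them large by selection. Over all 71 genes the medians are -0.15 in resting and -0.07 in stimulated cells. The dashed line marks equal change.

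Members that fell with IFN-4a were mostly among those that rose with anti-CD3: 14 of the 15 rose between PBS with IFN-4a and anti-CD3 with IFN-4a, 73.2% of all members doing so. Both comparisons use the PBS arrays with IFN-4a, so a low value there enters both. Mrps18b, Mrpl32, Mrpl37 and Mrpl35 had the largest interaction of the 15, and none was called for it. Their log2 changes with anti-CD3 were 1.18, 0.58, 0.72 and 0.44 without IFN-4a and 1.56, 0.87, 0.98 and 0.74 with it. They were picked for this difference, so it is large by selection. In the same order, the group means of their stimulated arrays were 0.67, 0.44, 0.43 and 0.22 without IFN-4a. With it they were 0.55, 0.21, 0.33 and 0.21.

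Other genes of the pathway were taken from lists, to be read against the 13.8% of all genes that rose and the 18.0% that fell with anti-CD3 alone. Among brightly measured genes 33.5% rose and 34.7% fell. Of the mitochondrial translation factors 8 of 16 rose and 2 fell (12.5%), with a median of 0.17. Lrpprc, which stabilises mitochondrial messenger RNA, rose by 1.12, the elongation factor Gfm1 by 0.97, the recycling factor Mrrf by 0.73 and the elongation factor Tufm by 0.56. Of the factors that assemble the mitochondrial ribosome or modify its RNA, 10 of 29 rose and 5 fell (median 0.05). The 34.5% that rose are over the 13.8% of all genes and near the 33.5% of brightly measured genes. The 17.2% of these factors that fell are near the 18.0% of all genes and under the 34.7% of brightly measured genes. The translation factors' 12.5% are under both. Neither share is a like background, since the list of assembly factors also holds genes that were not brightly measured, such as Ddx28. Pusl1, annotated as a pseudouridine synthase, rose by 1.28, the RNA methyltransferase Mrm3 by 1.11 and Fastkd2, which binds the large ribosomal RNA, by 1.06. No test of a difference from the ribosomal protein genes was made for these lists.

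Genes of mitochondrial DNA transcription and maintenance were higher in 11 of 17 and lower in 3 (median 0.40). The RNA processing enzyme Elac2 rose by 1.58, the pyrimidine nucleotide carrier Slc25a33 by 1.27 and the RNA degrading enzyme Pnpt1 by 1.0. Tfam, which packages mitochondrial DNA, rose by 0.35, while the RNA polymerase Polrmt changed by 0.06 (adjusted p = 0.603). Mitochondrial aminoacyl-tRNA synthetases rose in 10 of 21 and fell in 2 (median 0.15), with Yars2 at 1.12 and the genes Kars and Gars, which also serve the cytosol, at 1.08 and 0.87. Nuclear regulators of mitochondrial biogenesis rose in 8 of 15 and fell in 1 (median 0.19). The growth regulator Myc rose by 2.75 and the coactivator Pprc1 by 1.52, Prmt5 rose by 0.80, and Gabpa and Nrf1 rose by 0.23 and 0.19.

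The import machinery moved most often, with 21 of 23 genes higher and none lower (median 0.54). The chaperonin Hspd1 rose by 2.03, the intermembrane space chaperone Timm9 by 1.65 and the outer membrane channel Tomm40 by 1.63. Of the messenger RNAs of the mitochondrial genome none of the 10 measured was called with anti-CD3 alone (limma; none at an unadjusted p under 0.05 either), with a median of -0.01 and a range from -0.09 to 0.03. ND6, COX3 and CYTB changed by -0.09, -0.04 and 0.03. With anti-CD3 and IFN-4a against PBS and IFN-4a all 10 lay below 0, with a median of -0.09, and none was called (limma; 3 lower at an unadjusted p under 0.05). With IFN-4a in stimulated cells all 10 also lay below 0, with a median of -0.11, against -0.002 over all genes and -0.05 over brightly measured genes. In 5 of the 10 the groups did not overlap. Of all 22180 genes 2687 lay wholly lower, and of 6683 brightly measured genes 1637 did. Again none of the 10 was called (limma, 2 lower at an unadjusted p under 0.05). These comparisons share the arrays with both agents. Ribosomal proteins of the mitochondrion under other names rose in 1 of 3: Gadd45gip1 at 0.30, with Dap3 at 0.13 and Ptcd3 at -0.10 not called. For comparison, 22 of 64 cytosolic ribosomal protein genes rose and none fell (median 0.10). The 34.4% that rose are near the 33.5% of brightly measured genes and over the 13.8% of all genes. None fell, where 34.7% of brightly measured genes and 18.0% of all genes did. Of 72 nuclear respiratory chain and ATP synthase genes 36 rose and 6 fell (median 0.20).

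**Figure D5:**
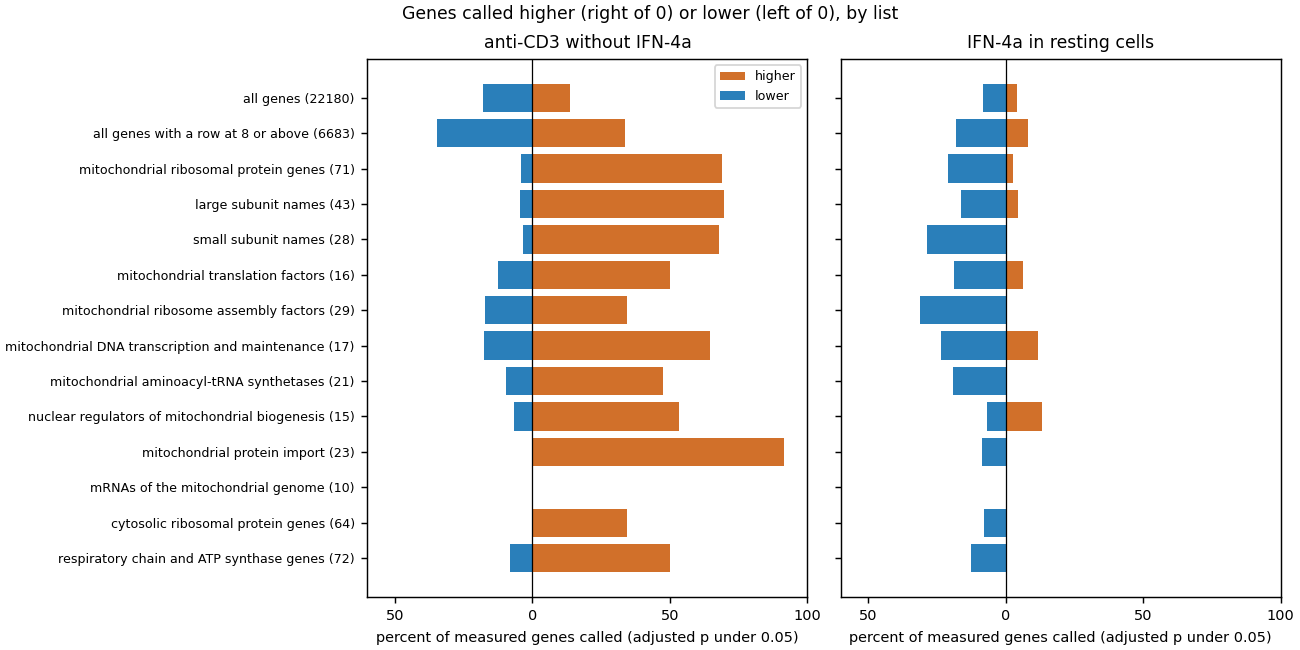
Percent of measured genes called higher (right of 0) and lower (left of 0) in each list, with the number of measured genes in brackets, for anti-CD3 without IFN-4a and for IFN-4a in resting cells. With anti-CD3 the ribosomal protein genes reach 69.0% higher and import genes 91.3%, against 13.8% of all genes and 33.5% of brightly measured genes. None of the 10 mitochondrial genome messenger RNAs is called.

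With IFN-4a in resting cells the same lists were read against the 8.37% of all genes, and the 17.9% of brightly measured genes, that fell. Genes that fell numbered 9 of 29 assembly factors (31.0%), 4 of 17 transcription and maintenance genes (23.5%), 4 of 21 synthetases (19.0%) and 3 of 16 translation factors (18.8%). They numbered 2 of 23 import genes (8.7%) and 1 of 15 nuclear regulators (6.67%), which is near the share of all genes. Pnpt1, a known interferon-induced gene, rose by 1.27. Of the cytosolic ribosomal protein genes 5 of 64 fell (7.81%), also near that share, and of the respiratory chain genes 9 of 72 (12.5%), while none of the 10 mitochondrial genome messenger RNAs was called. Ptcd3, a mitochondrial ribosomal protein under another name, fell by 0.42.

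Markers of other cells that a depleted spleen fraction could hold were counted in the same way. With anti-CD3 alone 0 of 7 B cell markers rose and 1 fell, with Cd79b at -0.69, Blk at 0.27 and Cr2 at -0.19. Of 4 CD4 T cell markers 1 rose, with Cd40lg at 1.04, Zbtb7b at -0.15 and Cd4 at -0.12. Cd40lg is also induced by activation in T cells. Of 7 NK cell markers 3 rose and 1 fell, with Eomes at 1.59, Nkg7 at 0.93 and Klri2 at 0.34, and Eomes and Nkg7 are expressed by CD8 T cells as well. Of 9 myeloid markers 1 rose, with Itgax at 0.56, Lyz2 at -0.25 and Csf1r at -0.17. Of 7 granulocyte markers 1 fell, Elane at -0.24 (adjusted p = 0.0242), with Mpo at -0.30 (adjusted p = 0.0502) and S100a9 at 0.14 not called. Elane and Mpo encode granule enzymes of neutrophils. Erythroid and platelet markers fell in 1 of 4, with Itga2b at -0.23, Pf4 at -0.06 and Ppbp at -0.04. The mean over the NK cell markers, Eomes and Nkg7 included, ran from -0.38 to -0.31 on the PBS arrays and from 0.00 to 0.07 on the anti-CD3 arrays. The median over these markers overlapped, from -0.2 to 0.02 and from -0.02 to 0.08. The mean over the B cell markers ran from -0.02 to 0.09 and from -0.12 to -0.01.

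The same markers were counted in the other comparisons. With IFN-4a in resting cells 1 of 7 NK cell markers rose, the granzyme Gzma at 2.28 (adjusted p = 3.01e-06), and no marker of the other cells was called. The mean over the NK cell markers, Gzma included, ran from -0.09 to 0.17 on the arrays of PBS with IFN-4a, above the PBS arrays. Their median overlapped, from -0.02 to 0.05 on those arrays and from -0.2 to 0.02 on the PBS arrays. The median log2 change of the 7 markers was 0.06. With anti-CD3 and IFN-4a against PBS and IFN-4a 2 of 7 B cell markers fell, Cd79b by 0.43 and Cd79a by 0.21, and 1 of 4 CD4 T cell markers rose, Cd40lg by 0.74. In that comparison 2 of 7 NK cell markers rose, Eomes by 2.02 and Nkg7 by 1.01, and Klre1 fell by 0.28. Of 9 myeloid markers 2 rose there, Itgax by 0.41 and Cd68 by 0.25, and no granulocyte, erythroid or platelet marker was called. With IFN-4a in stimulated cells 3 of 7 NK cell markers rose, Gzma by 1.95 and Eomes by 0.46 among them, and Klri2 fell by 0.37, while no marker of the other cells was called. For the marker lists of every comparison, their part in the changes of the ribosomal protein genes was not tested.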

How the data were processed

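RNA of mouse splenic CD8+ T cells was biotin-labelled (WT Plus kit, per the labels) and put on 12 arrays. The deposited values are logs, read as log2, and were centred per row before deposition (row medians are 0 within 5e-07). Neither the base nor the normalization between arrays, the probe summarization or the programs are stated in the labels or the file. If the base were natural, every fold would be larger. Probe annotation gave 1 symbol to 23521 rows, several to 1814 and none to 8458. Several rows of a gene were averaged (9 of 71 members had 2 rows), which gave 22180 genes. All 71 member symbols were also in RefSeq (GRCm38.p6). A row counted as brightly measured where the decimal steps of its values, within 0.1 of a step, placed it at 8 or above before centring on its 6 highest arrays: 65.0% of member rows and 29.32% of all single-symbol rows. Arrays give no count depth, and their number limits the precision.

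Groups were taken from the sample titles and compared with limma 3.58.1 in R 4.3.3: 1 mean per group over all 12 arrays, 5 contrasts, moderated two-sided tests with 8 residual degrees of freedom, and p-values adjusted by Benjamini-Hochberg over all 22180 genes within each contrast, called under 0.05. The fit was tested on simulated data. SE is that of the moderated fit. Named are, per comparison, the 8 largest called increases and decreases among the members, and any tied with them as printed. Also named are the check genes, a few members whatever their values, and the 3 genes of each list changing most with anti-CD3 alone. Mrps5 and the members whose calls differed between comparisons were named after their values were seen. So were the members named for their interaction. The lists were translation factors, assembly factors, mitochondrial DNA transcription and maintenance, aminoacyl-tRNA synthetases, nuclear regulators, import, mitochondrial genome messenger RNAs, mitoribosomal proteins under other names, cytosolic ribosomal protein genes, respiratory chain genes and 6 marker lists. The members and lists were chosen with earlier results of these data known. Alternatives were quantile normalization, array medians set to 0, array weights, the row with the highest mean, bright rows alone, only the compared groups, the replicate number as a block, and leaving out each array. Motifs were matched as exact letters in RefSeq start regions.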

Additional observations from a re-analysis of the deposited data

Results flagged for a closer look

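Rows that pair a mitochondrial ribosomal protein symbol with another gene were outside the comparisons, because their signal cannot be given to 1 gene. With anti-CD3 and without IFN-4a, 4 of these 13 rows were higher and 3 lower at an adjusted p under 0.05 (limma over all rows), where 11.7% of all 33793 rows were higher and 14.0% lower. The row of Mrps6 and Slc5a3 had a log2 change of 1.8 (adjusted p = 6.88e-10). The row shared by Actl6a and Mrpl47 had a change of 0.64, beside 0.82 and 1.23 for the rows of Mrpl47 alone. The row of Mrpl30 and Gm6238 changed by 0.42 and that of Mrpl43 and Twnk by 0.24. The 3 lower rows were those of Ccdc142 and Mrpl53 (-0.38, adjusted p = 0.00363), Babam2 and Mrpl33 (-0.25, adjusted p = 0.00611) and Nme3 and Mrps34 (-0.24, adjusted p = 0.0234). The other row of Mrpl53 and Ccdc142 changed by 0.02 and the row of Mrpl33 and Gm38424 by 0.12, neither of them called. The row of Mrpl44 and Wdfy1 changed by 0.25 (adjusted p = 0.0746). Which gene of each pair changed was not tested.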

How the results depend on the processing

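The counts of called members kept within 1.5 times of the reported values for anti-CD3 without IFN-4a and with it. Under the other settings with all 71 members they were 48 to 54 and 52 to 56. With bright rows alone they were 44 and 45 of 51 members, where 73.9% and 71.4% of 6683 genes were called. They ran from 43 to 51 and from 48 to 55 when each array was left out. For IFN-4a in resting cells the 17 calls became 10 after quantile normalization (0 higher, 10 lower), 24 of 51 members with bright rows alone (2 higher, 22 lower), where fewer genes were tested and 36.8% of them were called, 12 to 18 under the other settings, and ran from 9 to 18 when each array was left out. For IFN-4a in stimulated cells the 0 calls became 1 with quantile normalization, 1 with the replicate block, 1 with array medians set to 0, 4 with array weights and 3 with bright rows alone, and 0 to 1 when each array was left out. For the interaction the 0 calls became 1 with array weights and 1 with bright rows alone, and stayed at 0 when each array was left out. Of single members Mrps5 turned with anti-CD3 alone, to -0.10 (limma, adjusted p = 0.308). This came from taking its row with the highest mean in place of the mean of its rows. That mean is of centred values, so it does not pick the brighter row. The row picked was not brightly measured, and the brightly measured row of Mrps5 gave 0.51 (limma, adjusted p = 0.000251). The labels state no pairing by the replicate numbers of the titles. Deviations of same-numbered arrays correlated between -0.0718 and 0.2675, with 6 of 18 pairs over 0.1. For arrays with different numbers the correlations ran from -0.2514 to 0.1849, so some of these pairs also passed 0.1. Deviations within a group sum to 0, so higher values in the first range force lower ones in the second. Whether arrays of the same number share an effect was not tested. With the replicate block 52 members were called with anti-CD3, 55 with anti-CD3 and IFN-4a, 17 with IFN-4a in resting cells, 1 in stimulated cells and 0 for the interaction. No setting moved the median over all genes by 0.1. Signal over background could not be read from centred values.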
